A study of Mus musculus with 12 samples.

Results

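The let-7 family was followed in colonies of AKR-2B cells, a mouse fibroblast line, growing without attachment in soft agar, a semi-solid medium. Its members were taken by name from the deposited table of mature microRNA (miRNA) counts: let-7a, b, c, d, e, f, g and i and miR-98 as their 5p arms, plus let-7d-3p, the opposite arm of the let-7d hairpin. These are 10 of the 1281 miRNAs listed, and each had reads in all 6 libraries. The 13 other rows named let-7 or miR-98, mostly 3p arms, are described with the arm ratios. One set of colonies received vehicle and the other TGFβ at 25 ng/mL. Colonies were recovered at days 2, 4 and 8 for total RNA, with 1 miRNA library for each condition and day. No difference within a day therefore has a replicate check, and the intervals given hold counting error alone. Reads that carry no molecular identifier may be copies of 1 molecule, so even the counting error may be larger than shown.

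miRNAs are short RNAs cut from hairpin precursors. Loaded into an Argonaute protein, they pair through their seed (bases 2 to 8) with sites in mRNAs, mostly in the 3′ untranslated region (3′UTR), and lower the output of those mRNAs. The let-7 family is conserved across animals, accumulates as cells differentiate, and is known for holding down growth-promoting genes such as Hmga2, Myc, Ras genes and cyclins. LIN28 proteins block the maturation of most let-7 precursors.

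The mature sequences, from the RefSeq table for GRCm38.p6, are shown because they set what can be told apart by counting. All 10 members were matched there, each is 22 bases long, and capitals mark the seed. The table's prefix mmu, for mouse, is left out below.
mmu-let-7a-5p: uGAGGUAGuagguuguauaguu
mmu-let-7b-5p: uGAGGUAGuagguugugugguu
mmu-let-7c-5p: uGAGGUAGuagguuguaugguu
mmu-let-7d-5p: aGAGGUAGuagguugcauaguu
mmu-let-7e-5p: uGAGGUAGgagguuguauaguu
mmu-let-7f-5p: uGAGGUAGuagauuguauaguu
mmu-let-7g-5p: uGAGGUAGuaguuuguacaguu
let-7i-5p: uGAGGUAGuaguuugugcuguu
mmu-miR-98-5p: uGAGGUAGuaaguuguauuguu
mmu-let-7d-3p: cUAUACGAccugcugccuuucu

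The 9 5p members share the seed GAGGUAG, and let-7d-3p has another, UAUACGA. Among the 36 pairs of 5p members the number of differing bases ran from 1 to 6, and 4 pairs were 1 base apart. Counted from 1 at the 5′ end, let-7c differs from let-7a by A19G, let-7e by U9G and let-7f by G12A, and let-7b differs from let-7c by A17G. How reads with a mismatch were assigned is not given in the sources used here, so the split among these neighbours is less certain than the family total.

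Several members come from more than 1 locus. In GRCm38, let-7a-1, let-7f-1 and let-7d lie together in exons of the noncoding RNA 6720427I07Rik (let-7d at chr13:48536012-48536114, minus strand), with gaps of 261 and 1714 bases. let-7b (chr15:85707319-85707403, plus strand) and let-7c-2 lie 621 bases apart in an exon of the noncoding RNA Lncppara. let-7c-1 (chr16:77599657-77599750, plus strand) lies 656 bases from miR-99a in an intron of Mir99ahg. let-7a-2 (chr9:41536716-41536811, plus strand) lies 5211 bases from miR-100, and let-7e (chr17:17830352-17830444, plus strand) is in an intron of Spaca6, 367 bases from miR-125a. let-7f-2 and miR-98 (chrX:151913214-151913321, plus strand) lie 785 bases apart in an intron of the ubiquitin ligase gene Huwe1, let-7g (chr9:106178840-106178927, plus strand) is in an intron of Wdr82, and let-7i (chr10:122985640-122985724, minus strand) overlaps an exon of the transcribed pseudogene D630033A02Rik. In the authors' deposited RPM table, which lists each precursor, let-7a-5p of the day 2 vehicle library was 5246.91 for let-7a-1 and 5219.31 for let-7a-2, and let-7c-5p was 13606.10 for let-7c-1 and 13730.40 for let-7c-2. These near-equal pairs carry identical mature sequences, so the values do not show which locus the reads came from.

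The libraries held 108716 to 1387785 miRNA reads, and at each day the TGFβ library was the deeper. All 6 listed fibroblast miRNAs had reads in every library, at a summed 119681 to 262931 CPM (counts scaled to the library total). Their sum was higher with TGFβ than with vehicle at each day. miR-21a-5p is 1 of the 6 and was itself higher with TGFβ at each day, at day 2 with 14.8% of the reads against 5.70% with vehicle. The sum therefore does not show how the others moved. Of the 6 epithelial miRNAs listed, 133 reads fell in the day 2 TGFβ library and 1 to 15 in the others. Leukocyte miRNAs (2 of 4 listed were in the table) had 0 reads in 5 libraries and 2 reads in the day 8 TGFβ library, the liver miRNA had 0 to 8 reads, the striated muscle miRNAs 6 to 158, and the nerve miRNAs 41 to 659, all from 1 of the 2 listed. Neither of the 2 endothelial miRNAs listed was found under its name among the miRNAs counted. The part that depth and these miRNAs play in the let-7 values was not tested.

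Taken as a whole, the family made up a large part of the miRNA pool in vehicle colonies and a smaller part in TGFβ colonies at days 4 and 8. In the vehicle libraries the 10 members summed to 17.5% of all miRNA reads at day 2, 15.0% at day 4 and 15.8% at day 8. In the TGFβ libraries they summed to 16.3%, 8.48% and 6.67%. The TGFβ share thus lay below the vehicle share at each day, by little at day 2 and by much more later. The ratio of the shares, TGFβ over vehicle, was 0.933 (95% counting interval 0.916 to 0.951) at day 2, 0.566 (0.557 to 0.574) at day 4 and 0.423 (0.419 to 0.427) at day 8. Within vehicle the share at days 4 and 8 was 0.859 and 0.902 of that at day 2, and within TGFβ it was 0.520 and 0.409. In bulk RNA, fewer cells of a type and less RNA per cell cannot be told apart.

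**Figure D1:**
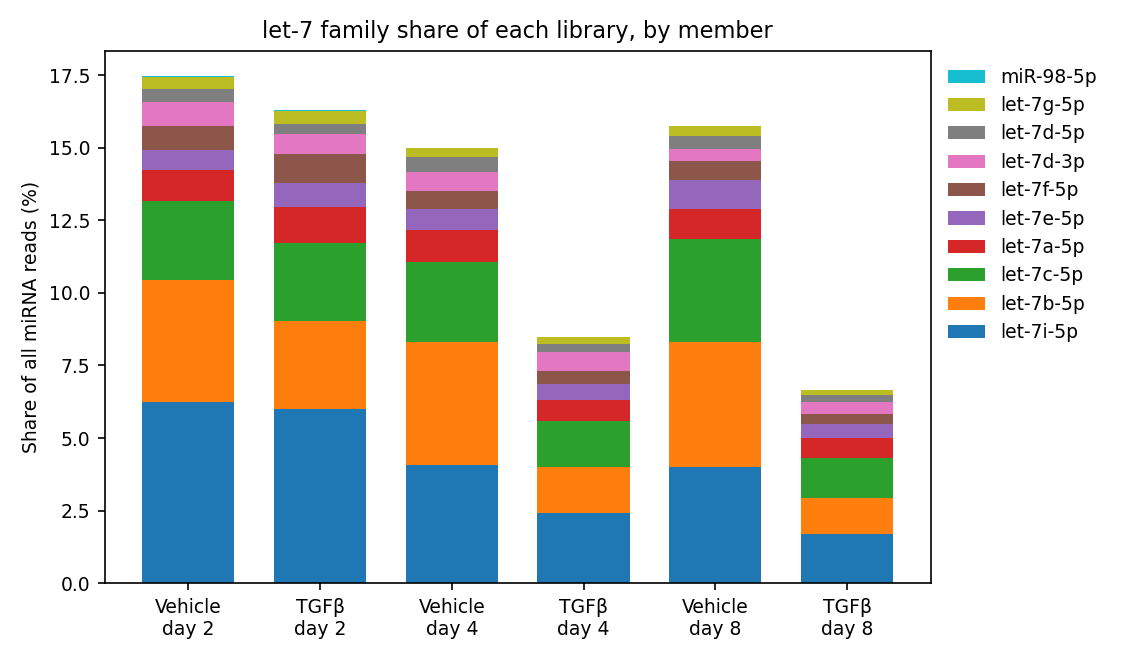
Stacked bars give the share of all miRNA reads (percent, y axis) taken by each of the 10 let-7 members in the 6 libraries (x axis), with 1 library per bar and no error bars. The 3 vehicle bars reach 17.5%, 15.0% and 15.8%, and the TGFβ bars 16.3%, 8.48% and 6.67%.

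A share depends on what else fills the library. miR-21a-5p, a growth-associated miRNA, took 5.70%, 3.38% and 3.30% of the vehicle reads and 14.8%, 10.4% and 10.3% of the TGFβ reads. Without miR-21a-5p in the total, the ratio of the let-7 shares was 1.03 (1.01 to 1.05) at day 2, above 1, and 0.610 and 0.456 at days 4 and 8. Without let-7b-5p among the members, the day 2 ratio was 1.00064 (0.980 to 1.02), and those at days 4 and 8 were 0.642 and 0.471. Without let-7i-5p the day 2 ratio was 0.917, and without miRNAs numbered 1000 and above in the total it was 0.908. The day 2 ratio thus lay on either side of 1 depending on what was counted, while those at days 4 and 8 stayed below 1 under all 5 alternatives.

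The most abundant members were let-7i-5p, let-7b-5p and let-7c-5p. All members are the same length, so no length scaling enters. Capture and amplification of small RNA can depend on sequence, so the order is an order of reads. let-7i-5p led at day 2, with 6.23% of the vehicle reads and 6.00% of the TGFβ reads, where it ranked 2 and 3 among all miRNAs. At days 4 and 8, let-7b-5p stood first in the vehicle libraries, at 4.24% and 4.30% of the reads, and let-7i-5p first in the TGFβ libraries, at 2.41% and 1.68%. In each library these 3 took positions 1 to 3 of the family, and let-7a-5p was the fourth. Below them came let-7e, let-7f and let-7d-3p, then let-7d-5p and let-7g. miR-98-5p was last in every library with 31 to 71 reads, at most 0.0285% of a library. Some neighbours in this order did not differ beyond counting error: let-7c and let-7b with TGFβ at day 4 (ratio 1.03, 0.993 to 1.06), the 2 arms of let-7d in vehicle at day 8 (1.00, 0.939 to 1.07), let-7d-5p and let-7g with vehicle at day 2 and TGFβ at day 4, and let-7f and let-7d-3p with vehicle at days 2 and 4.

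The make-up of the family also changed. With vehicle, let-7b-5p held 24.2%, 28.3% and 27.3% of the family's reads at days 2, 4 and 8, and with TGFβ 18.7%, 18.6% and 19.0%. The TGFβ values lay below all vehicle values. let-7i-5p held 35.6%, 27.1% and 25.4% with vehicle and 36.8%, 28.5% and 25.2% with TGFβ, so its part of the family followed the day, with the conditions close together. let-7d-3p held 4.64%, 4.44% and 2.70% with vehicle and 4.07%, 7.77% and 6.17% with TGFβ.

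Member by member, the ratio of TGFβ to vehicle was lower at day 8 than at day 2 for the 9 5p arms and higher for let-7d-3p. Differences between libraries are given on the scale of trimmed mean of M-values (TMM) factors, which centre the bulk of miRNAs, with a log2 change taken from CPM with a prior count of 2. At day 2, 0 of the 10 members were at least 1.5-fold lower with TGFβ, against 23.7% of all 375 miRNAs measured. Only 1 member, let-7f-5p, was at least 1.5-fold higher (18.7% of all), just past the cutoff. With total counts and with DESeq2 size factors 0 members were at least 1.5-fold higher at day 2, where 47 and 65 of the 375 miRNAs were. At day 4, 2 members, let-7b-5p and let-7d-5p, were at least 1.5-fold lower, against 29.2% of 366 miRNAs. At day 8, 6 members were (let-7b, c, e, g, i and miR-98), against 31.8% of 358 miRNAs, and 0 were 1.5-fold higher at days 4 and 8, against 28.7% and 30.7%. The median log2 change of the members was 0.25, -0.29 and -0.77 at days 2, 4 and 8, beside 0.00, 0.03 and -0.04 over all miRNAs measured. Total-count scaling shifted the median over all miRNAs by -0.24, -0.33 and -0.29. On that scale 0, 5 and 9 members were at least 1.5-fold lower at days 2, 4 and 8, against 31.7%, 38.1% and 43% of all miRNAs.

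**Figure D2:**
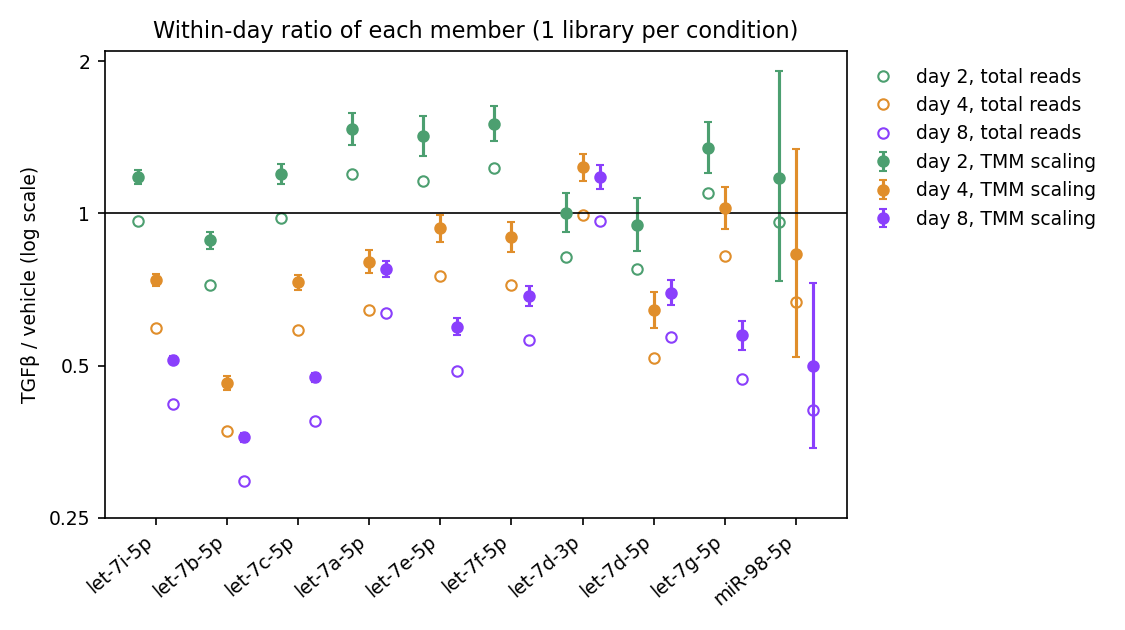
Points give the ratio of TGFβ to vehicle (y axis, log scale) for each member (x axis) at days 2, 4 and 8, filled with TMM scaling and 95% counting intervals, open with total counts. On the TMM scale let-7b-5p is the lowest at each of the 3 days (0.884, 0.462 and 0.361), and let-7d-3p lies at 1.00, 1.23 and 1.18.

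let-7b-5p had a lower value with TGFβ than with vehicle at each of the 3 days. It made up 4.22%, 4.24% and 4.30% of the vehicle reads at days 2, 4 and 8 and 3.05%, 1.57% and 1.27% of the TGFβ reads. The vehicle level hardly moved over time, and all 3 TGFβ libraries lay below all 3 vehicle libraries. On the TMM scale its ratio of TGFβ to vehicle was 0.884 (0.850 to 0.920), 0.462 (0.448 to 0.476) and 0.361 (0.353 to 0.368). let-7b-5p was the 1 member of 10 whose groups did not overlap on this scale, close to the 10.2% of 373 miRNAs that lay wholly below. On total counts let-7c-5p and let-7d-5p also had groups that did not overlap, making 3 members, where 18.5% of 373 miRNAs lay wholly below.

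let-7c-5p, which shares the Lncppara transcript with let-7b through its second locus, was lower with TGFβ from day 4 on. It made up 2.73%, 2.75% and 3.55% of the vehicle reads and 2.67%, 1.61% and 1.38% of the TGFβ reads. Its TMM-scaled ratio was 1.20 (1.14 to 1.25), 0.731 (0.706 to 0.756) and 0.474 (0.463 to 0.484).

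let-7i-5p fell with time in both conditions. Its reads were 6768, 9451 and 16604 with vehicle, or 6.23%, 4.07% and 4.00% of the library, and 10730, 11099 and 23320 with TGFβ, or 6.00%, 2.41% and 1.68%. The day 2 libraries were the highest in each condition, and the 2 conditions overlapped. The TMM-scaled ratio of TGFβ to vehicle was 1.18 (1.15 to 1.22) at day 2, 0.738 (0.718 to 0.759) at day 4 and 0.513 (0.503 to 0.523) at day 8.

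The let-7a, e, f and g 5p arms had ratios above 1 at day 2 and below 1 at day 8. let-7a-5p made up 1.05%, 1.08% and 1.05% of the vehicle reads and 1.25%, 0.698% and 0.669% of the TGFβ reads. let-7e-5p made up 0.691%, 0.738% and 0.996% with vehicle and 0.802%, 0.554% and 0.486% with TGFβ. let-7f-5p stood at 0.833%, 0.624% and 0.644% with vehicle and 1.02%, 0.450% and 0.362% with TGFβ. In all 3 the TGFβ library was the higher at day 2 and the lower at days 4 and 8, so the groups overlapped. let-7g-5p stood at 0.420%, 0.300% and 0.355% with vehicle and 0.462%, 0.247% and 0.167% with TGFβ. Its day 4 difference turned with the scaling: the ratio was 1.03 (0.933 to 1.13) on the TMM scale and 0.824 on total counts. The TMM-scaled ratios at day 2 were 1.35 for let-7g-5p, 1.42 for let-7e-5p, 1.47 for let-7a-5p and 1.504 for let-7f-5p, and those at day 8 lay between 0.574 for let-7g-5p and 0.776 for let-7a-5p. With total counts the day 2 ratios of the 4 were 1.10 to 1.23.

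miR-98-5p, encoded beside let-7f-2 in Huwe1, was rare. Its reads were 31, 34 and 52 with vehicle and 49, 45 and 71 with TGFβ, or 0.0285%, 0.0146% and 0.0125% of the library against 0.0274%, 0.00979% and 0.00512%. Its TMM-scaled ratio was 1.18 (0.736 to 1.91) and 0.832 (0.521 to 1.34) at days 2 and 4, with no difference detectable at this depth, and 0.499 (0.344 to 0.728) at day 8.

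Tests could be made only over all 6 libraries together, in an edgeR quasi-likelihood fit with day and treatment. The response that differs between days enters the spread, with 2 residual degrees of freedom per miRNA. That spread was drawn toward a value pooled over all miRNAs (12.7 prior degrees of freedom). A p therefore does not rest on a member's own spread alone. All p-values were adjusted by Benjamini-Hochberg over all 283 miRNAs tested. Averaged over the days, 0 of the 10 members were called for TGFβ at an adjusted p under 0.05, against 7.42% of all miRNAs tested. In simulated data this test recovered 17% of 2-fold changes, so a member left uncalled is not shown to be unchanged. let-7b-5p came nearest, with a log2 change of -0.92 ± 0.31 (SE; edgeR adjusted p = 0.0653), and it was lower with TGFβ at 3 of 3 days. It was the 1 member with an unadjusted p under 0.05, a level that 84 of the 283 miRNAs reached. The averaged log2 changes of the other 5p members ran from -0.04 for let-7f-5p to -0.42 for let-7c-5p, and let-7d-3p stood at 0.18 ± 0.29 (-0.12 on total counts). DESeq2 called let-7b-5p (-0.97, DESeq2 adjusted p = 0.0477), among 41 of 283 miRNAs called. edgeR with total counts also called it (-1.22, edgeR adjusted p = 0.0225), among 44 of 283. So did edgeR without day 2 (-1.20, edgeR adjusted p = 0.00765), among 109 of 314. Over its alternatives the adjusted p of let-7b-5p ran from 0.00765 to 0.652, the highest without day 4.

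Between day 2 and day 8, averaged over treatment, all 10 members had negative log2 changes, and 2 passed the edgeR test, against 15.2% of all miRNAs tested in either direction and 9.89% on the lower side. let-7i-5p had a change of -1.32 ± 0.36 (SE; adjusted p = 0.0294 in edgeR) and miR-98-5p one of -1.89 ± 0.56 (adjusted p = 0.0343 in edgeR), both lower at day 8 than at day 2 in both conditions. With no filter on low counts neither passed (edgeR adjusted p = 0.0661 and 0.0865). let-7f-5p (-1.03, edgeR adjusted p = 0.0892) and let-7d-3p (-0.89, edgeR adjusted p = 0.117) did not pass, and let-7e-5p had the smallest change, -0.17 ± 0.39, which was 0.19 with no filter. A TGFβ response that differs between days is part of the spread of this average over treatment.

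Between day 2 and day 4, 0 of 10 members passed in edgeR, as did 0% of all 283 miRNAs. let-7f-5p, let-7i-5p and miR-98-5p had unadjusted p under 0.05, as did 27 miRNAs in all, and DESeq2 called 2 miRNAs, neither a member. Nor did the growth of the TGFβ effect with time pass for any member. In an edgeR fit of treatment against log2 of the day, 0 of 10 members and 0% of all miRNAs were called, while 4 members (let-7b, c, e and g) were among the 50 miRNAs at an unadjusted p under 0.05. The change of the TGFβ effect per doubling of time was -0.67 ± 0.22 for let-7c-5p (edgeR adjusted p = 0.214) and -0.65 ± 0.23 for let-7b-5p (edgeR adjusted p = 0.239), negative for all 9 5p members and 0.12 ± 0.24 for let-7d-3p. DESeq2 called 10 miRNAs in this test, none a member. In simulated data the edgeR fit recovered 2.33% of 2-fold changes per doubling of time, so 0 calls do not show a constant effect. That simulation used the spread of the day plus treatment fit (biological coefficient of variation 32.8%), where the log2 day fit had 25.1%. In both simulations the changes were placed among all 283 miRNAs, so recovery at the level of the let-7 members was not measured. Days are not replicates, and an exact permutation over 3 pairs of days cannot give a p below 0.25.

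let-7d is the hairpin of the family whose 3p arm was counted at the level of its 5p arm or above. Its precursor is shown with the 2 mature arms in capitals, the 5p arm first (RefSeq, GRCm38.p6, chr13:48536012-48536114, minus strand, 103 bases).
let-7d hairpin: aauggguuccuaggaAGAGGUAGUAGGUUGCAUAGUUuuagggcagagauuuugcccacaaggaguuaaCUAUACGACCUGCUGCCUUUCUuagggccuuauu

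Both arms are cut from this 1 molecule and counted in the same library, so their ratio needs no scaling. With vehicle, let-7d-3p had 881, 1544 and 1769 reads at days 2, 4 and 8, and let-7d-5p had 500, 1177 and 1762. With TGFβ the 3p arm had 1186, 3029 and 5715 reads and the 5p arm 638, 1206 and 3363. The 3p to 5p ratio was 1.76, 1.31 and 1.00 with vehicle and 1.86, 2.51 and 1.70 with TGFβ, so it fell toward parity in vehicle colonies and stayed well above it in TGFβ colonies. The ratio with TGFβ was 1.06 times that with vehicle at day 2 (0.909 to 1.22), not a difference detectable at this depth, 1.91 times at day 4 (1.73 to 2.12) and 1.69 times at day 8 (1.56 to 1.83).

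As shares of the library, the 2 arms took different courses. let-7d-3p made up 0.810%, 0.665% and 0.426% of the vehicle reads and 0.663%, 0.659% and 0.412% of the TGFβ reads, close between conditions at days 4 and 8. let-7d-5p made up 0.460%, 0.507% and 0.425% with vehicle and 0.357%, 0.262% and 0.242% with TGFβ, lower with TGFβ at each day. On the TMM scale the day 4 and day 8 ratios of TGFβ to vehicle were 1.23 and 1.18 for the 3p arm (0.990 and 0.966 on total counts) and 0.644 and 0.697 for the 5p arm.

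**Figure D3:**
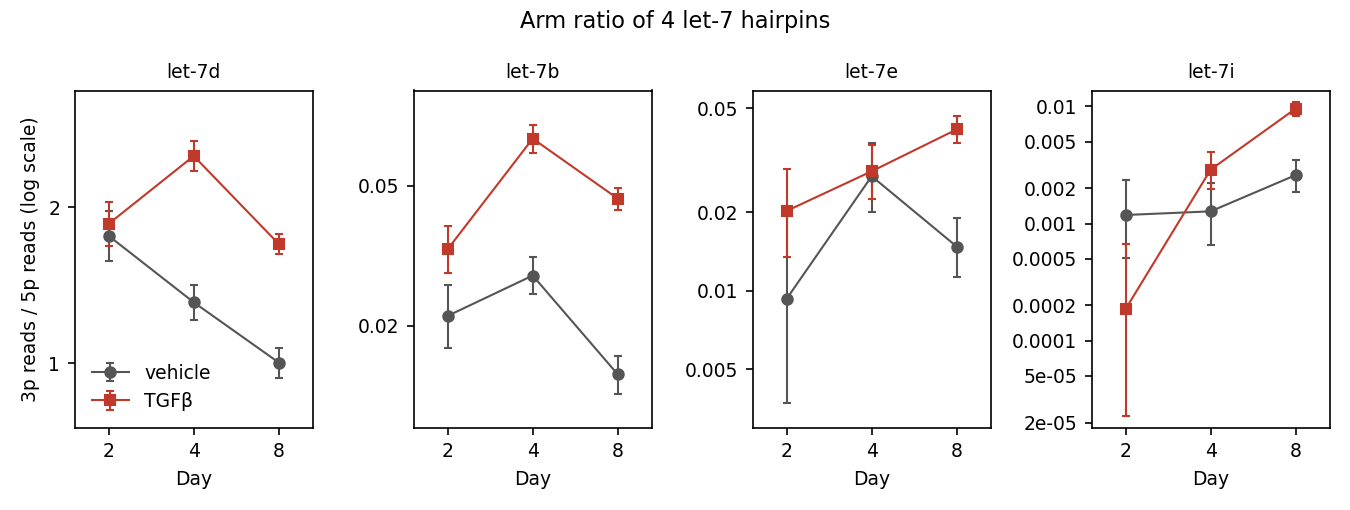
The ratio of 3p to 5p reads (y axis, log scale, a different range in each panel) is plotted against day (x axis) for the let-7d, let-7b, let-7e and let-7i hairpins, with 95% counting intervals and 1 library per point. For let-7d the vehicle points fall from 1.76 to 1.00 while the TGFβ points stand at 1.86, 2.51 and 1.70, and at day 8 the TGFβ point is the higher in all 4 panels.

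In the other hairpins the 3p arm was a minor product. let-7b had 21.4, 27.8 and 14.6 3p reads per 1000 5p reads with vehicle and 33.0, 68.1 and 46.0 with TGFβ, higher with TGFβ at each day by 1.55 (1.20 to 2.01), 2.45 (2.10 to 2.86) and 3.16 (2.74 to 3.65) times. let-7e had 9.32, 27.5 and 14.8 per 1000 with vehicle and 20.2, 28.7 and 41.5 with TGFβ, a ratio of ratios of 2.17 (0.924 to 5.89), 1.04 (0.710 to 1.55) and 2.81 (2.12 to 3.78). let-7i-3p had 8, 12 and 43 reads with vehicle and 2, 32 and 223 with TGFβ. Its ratio to the 5p arm with TGFβ was 0.158 times (0.0163 to 0.791) the vehicle value at day 2, 2.27 times (1.14 to 4.84) at day 4 and 3.69 times (2.65 to 5.25) at day 8. The day 2 value rests on so few reads that it was left out of the counts over hairpins. At day 8 the ratio of let-7b, d, e and i was at least 1.5-fold higher with TGFβ, where 25.6% of 86 hairpins with both arms were. At day 4 it was for let-7b, d and i, where 28.8% of 66 hairpins were, and at day 2 for let-7b and e, where 31.4% of 35 were. The median change over all hairpins with both arms was 1.10, 0.990 and 0.815 at days 2, 4 and 8.

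The remaining arms were scarce. let-7g-3p had 0 to 4 reads, miR-98-3p 0 or 1, let-7a-2-3p 0 to 10, let-7c-1-3p 0 to 7, let-7f-1-3p 2 to 44 and let-7f-2-3p 0 to 6. let-7a-1-3p and let-7c-2-3p have the same mature sequence and held identical counts in each library, 73 reads in all, so they are 1 measurement listed under 2 names. let-7k, which carries the let-7 seed, had 0 to 3 reads. let-7j had 103 to 791 reads, between 0.0142 and 0.0339 of those of let-7i-5p, and over the compared 22 bases it differs from let-7i by G8U, which changes its seed.
let-7i-5p: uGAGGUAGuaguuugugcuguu
let-7j: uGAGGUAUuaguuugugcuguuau

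Ratios between members of the same library show the unequal changes without any scaling. let-7b-5p over let-7a-5p was 4.03, 3.92 and 4.08 with vehicle at days 2, 4 and 8, nearly constant, and 2.43, 2.26 and 1.90 with TGFβ. The TGFβ values lay below all vehicle values, already at day 2 (2.31 to 2.55 against 3.78 to 4.30). let-7b-5p over let-7c-5p, 1 base apart, was 1.54, 1.54 and 1.21 with vehicle and 1.14, 0.975 and 0.922 with TGFβ. let-7i-5p over let-7a-5p went from 5.95 to 3.76 and 3.80 with vehicle and from 4.78 to 3.46 and 2.51 with TGFβ.

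The hairpins let-7a-2, let-7c-1 and let-7e lie in clusters with members of the miR-99, miR-100 and miR-125 families, which are thought to be transcribed with them. For the other hairpins placed above, let-7b and let-7i among them, no such neighbour was found nearby. let-7c-5p over miR-99a-5p was 13.2, 5.22 and 2.13 with vehicle and 13.2, 4.68 and 1.98 with TGFβ. This ratio fell with the day and was much alike in the 2 conditions. let-7c-5p also has a locus away from miR-99a, and miR-99a-5p rose between day 2 and day 8 (log2 change 2.32 ± 0.42, edgeR adjusted p = 0.00231). let-7e-5p over miR-99b-5p moved apart by condition, from 0.0934 and 0.101 to 0.155 with vehicle and from 0.0859 and 0.0691 to 0.0633 with TGFβ. Against miR-125a-5p, its neighbour in Spaca6, let-7e-5p stood at 0.213, 0.207 and 0.221 with vehicle and 0.345, 0.180 and 0.190 with TGFβ, higher with TGFβ at day 2 and slightly lower at days 4 and 8. let-7a-5p over miR-100-5p was 1.35, 1.15 and 0.865 with vehicle and 1.10, 0.647 and 0.495 with TGFβ, lower with TGFβ at each day. Like let-7c-5p, let-7a-5p also has a locus away from this neighbour, let-7a-1. None of the measured neighbour arms passed the averaged TGFβ test, where miR-99b-5p stood at 0.54 ± 0.25 on the log2 scale (adjusted p = 0.160 in edgeR) and miR-99a-5p at -0.34 ± 0.33 (adjusted p = 0.518 in edgeR). The other arms tested had averaged log2 changes of 0.60 ± 0.28 (miR-100-5p), 0.60 ± 0.33 (miR-99b-3p), 0.25 ± 0.28 (miR-125b-5p), 0.11 ± 0.62 (miR-125b-2-3p), -0.09 ± 0.38 (miR-125a-3p) and -0.20 ± 0.27 (miR-125a-5p), with edgeR adjusted p from 0.170 to 0.918. miR-99a-3p and miR-100-3p had 0 to 2 reads each and were not tested. With the same test at an unadjusted p under 0.05, miR-99b-5p and miR-125b-1-3p (0.84 ± 0.31, edgeR adjusted p = 0.0893) were the neighbours that passed.

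**Figure D4:**
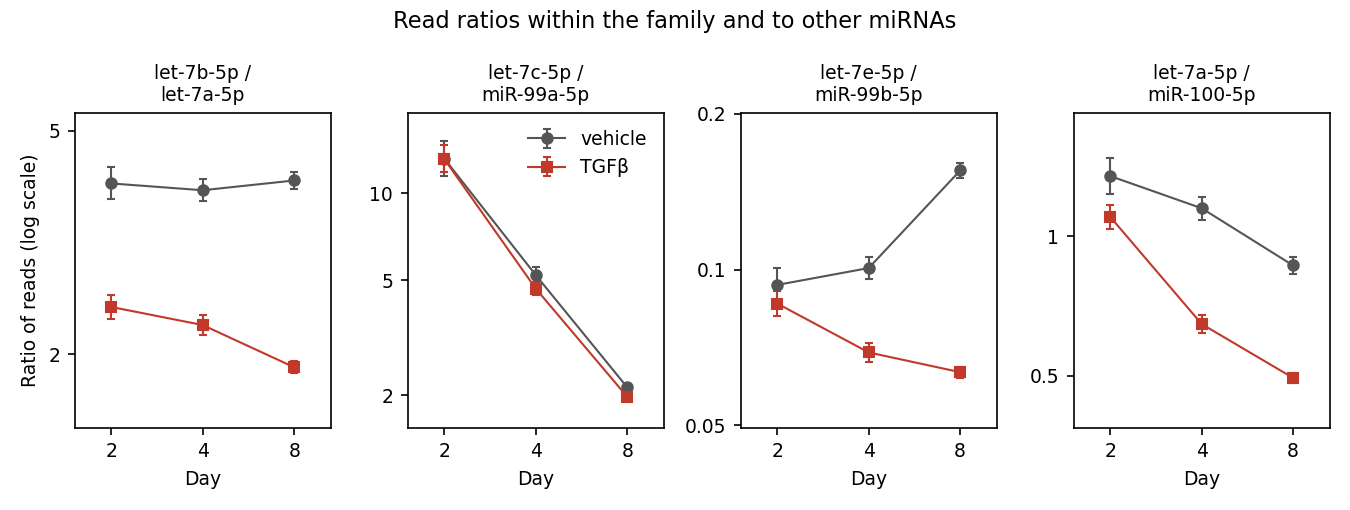
Ratios of reads within a library (y axis, log scale, a different range in each panel) are plotted against day (x axis) for let-7b-5p over let-7a-5p, let-7c-5p over miR-99a-5p, let-7e-5p over miR-99b-5p and let-7a-5p over miR-100-5p, with 95% counting intervals and 1 library per point. let-7b over let-7a lies near 4 with vehicle (3.92 to 4.08) and at 2.43, 2.26 and 1.90 with TGFβ, while let-7c over miR-99a is similar in both conditions.

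Over the 6 libraries, the summed level of the family (log2 CPM on the TMM scale) was set against that of the 178 other miRNAs averaging 100 CPM or more. As a description over 6 points that share treatment and day, the most alike were miR-6238 (r = 0.952), miR-877-5p (0.947), miR-690 (0.933), miR-669c-5p (0.927) and miR-1981-5p (0.918). The least alike were miR-532-3p (-0.981), miR-674-5p (-0.980), miR-331-3p (-0.972), miR-425-5p (-0.968) and miR-652-3p (-0.961). Among the members, each 5p arm had a correlation of 0.771 to 0.919 with the rest of the family, and let-7d-3p had 0.364.

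The mRNA of the same conditions and days was deposited as 3 tables, 1 per day, of a ratio per gene, with 499 genes above 1 and 499 below at each day. The headers name no direction. The ratios are read here as TGFβ over vehicle, and read the other way every direction would invert. Of 75 genes listed as let-7 targets from general knowledge, 7 were in the authors' deposited table for day 2 (3 above 1, 4 below). The table for day 4 held 8 of them (7 above, 1 below) and the one for day 8 held 6 (4 above, 2 below). Counted once each, 9 lay above and 5 below, and a gene left out of the tables is not shown to be unchanged. None of the 22 gene names listed for let-7 processing was in any table (among them Lin28a, Lin28b, Dicer1, Drosha and the Argonaute genes). Tut4 and Tut7 are in that list under the names Zcchc11 and Zcchc6 as well. Nor were the 6 names listed as hosts: Huwe1, Wdr82, Linc00478, Mir99ahg, Mirlet7bhg and Mir100hg. The hosts 6720427I07Rik, Lncppara, Spaca6 and D630033A02Rik were not looked up under these names.

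In the authors' deposited table Hmga2, a chromatin protein and a well known let-7 target, had ratios of 8.90 (day 4) and 5.51 (day 8). The same authors' deposited table gave the endothelin gene Edn1 3.95 (day 2). On day 4 the authors' deposited table listed the atypical MAP kinase Mapk6 (5.85) and the retinol dehydrogenase Rdh10 (6.27). For days 4 and 8 it gave 15.5 and 16.8 for the integrin gene Itgb3, and 6.65 and 7.91 for the phosphate transporter gene Slc20a1, both from the authors' deposited table. Other genes of the target list lay on the lower side. By the authors' deposited table the death receptor gene Fas was 12.6-fold, 27.9-fold and 35.6-fold lower with each later day, while Peg10 (11.6-fold lower) and the oncostatin M receptor gene Osmr (8.04-fold lower) were there for day 2. Few reads can stand behind 4 other entries of the authors' deposited table: Il6 (9 on day 4, 10.3 on day 8), Gdf6 (3 on day 2), Il10 (9-fold lower on day 2) and Acvr1c (13-fold lower on day 8).

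The sites that pair with the let-7 seed are shown for 3 of these targets. Capitals mark the 8-base site CTACCTCA, the complement of the seed followed by A, in the 3′UTR sense strand (GRCm38).
Hmga2, chr10:120364213-120364242, minus strand: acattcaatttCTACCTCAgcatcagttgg
Mapk6, chr9:75387520-75387549, minus strand: acatgtgttatCTACCTCAaggtaacaaaa
Fas, chr19:34327325-34327346, plus strand: aaaCTACCTCAgttccagccat

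The 8-base site was present in Hmga2 and Mapk6, listed above 1, and in Fas, listed below 1. The Hmga2 3′UTR held 1 site of 8 bases and 4 of the 7-base form CTACCTC, which includes the longer one. Of the other listed genes named above, Edn1, Osmr, Gdf6 and Acvr1c also held the 8-base site. Itgb3, Rdh10 and Slc20a1 held the 7-base form only. Peg10, Il6 and Il10 held neither form in the 3′UTR used. Over the longest annotated 3′UTR of each of 21022 genes, read on the sense strand only, 3.06% held CTACCTCA and 9.02% held CTACCTC. Among genes of the authors' deposited tables with a 3′UTR, CTACCTCA was present in 12 of 405 above 1 (2.96%) and 8 of 449 below 1 (1.78%) at day 2, 16 of 447 (3.58%) and 11 of 418 (2.63%) at day 4, and 13 of 438 (2.97%) and 12 of 444 (2.70%) at day 8. For CTACCTC the shares above and below 1 were 9.14% and 8.46%, 10.7% and 8.85%, and 9.59% and 8.78%. For both forms the share above 1 was larger than the share below 1 at each day. Against all genes, the CTACCTCA share above 1 was under 3.06% at days 2 and 8 and over it at day 4. The CTACCTC share above 1 was over 9.02% at each day. No test was made. Over days 2, 4 and 8, the median 3′UTR length of genes above 1 was 812, 1109 and 1029 bases, and of those below 1 it was 913, 860.5 and 922.5 bases. A match is a description of the sequence and not of binding.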

How the data were processed

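The authors deposited read counts per mature miRNA, which are whole numbers with library totals that differ, and a second table of RPM values per precursor made by the authors. The log fold-change columns of that table were not used here. For mRNA the authors deposited a ratio for each gene and no per-sample values. The submitters' processing notes name edgeR 3.9 and mm10 without saying what either was used for. The aligner is not given in the sources used here, nor is the counter. The labels' protocol names the TruSeq RNA kit for all libraries; a kit for small RNA is not given in the sources used here.

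Columns were matched to samples by title. The miRNA table was fitted in edgeR 4.0.16 (R 4.3.3, limma 3.58.1): TMM factors, filterByExpr by treatment (283 of 664 miRNAs with a read were tested), day plus treatment with 2 residual degrees of freedom, and Benjamini-Hochberg adjustment with calls under 0.05. The biological coefficient of variation was 32.8%. Within-day ratios covered miRNAs averaging 10 CPM or more over the pair and carry exact conditional binomial 95% intervals; shares carry exact binomial ones. Arm ratios over all hairpins needed reads in both arms of both libraries and at least 20 reads per arm over the pair. Fits were tested on simulated data. Alternatives were other scalings, filters and prior counts, each day left out, DESeq2 1.42.0, the RPM values, and other denominators and members of the share. Named were all members, all other let-7 and miR-98 arms, the cluster neighbours, the 5 miRNAs most and 5 least like the family, and all listed target, processing and host genes found in the mRNA tables, except an item that is not reported here. Members and lists were chosen with earlier results of these data known. Sites and hairpins came from GENCODE and RefSeq on GRCm38, the assembly that mm10 is based on. Other tools were Python 3.11.15, scipy 1.17.1, pandas 2.3.3 and matplotlib 3.10.9.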

Additional observations from a re-analysis of the deposited data

How the results depend on the processing

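The labels give no replicate numbers and each condition and day has 1 library. The only pairing was therefore by day, which is a term of the fit. For the TGFβ effect averaged over days, 0 members were called, against 1 (let-7b-5p) with total counts, without day 2 and with DESeq2. Among all miRNAs, 21 of 283 were called (13 higher and 8 lower), against 44 of 283 with total counts (11 and 33). DESeq2 size factors gave 25 of 283 (13 and 12), and DESeq2 gave 41 of 283. With no filter it was 46 of 664. Leaving out a day gave 109 of 314 (day 2), 2 of 283 (day 4) and 3 of 248 (day 8). edgeR's filter taken from the design, chosen after seeing the data, gave 6 of 309. Averaged changes that turned were let-7d-3p with total counts (-0.12), let-7a and let-7f with no filter (0.017 and 0.024) and with the design filter (0.013 and 0.021), let-7a without day 4 (0.041), and let-7a, e, f and g without day 8 (0.061, 0.15, 0.16 and 0.18); none had passed. For day 8 against day 2, 0 members were called with no filter or the design filter, against 2. There let-7e turned to 0.19 and 0.0025. Calls among all miRNAs were 43 of 283, 62 of 664 with no filter and 21 of 309 with the design filter. With no filter, day 4 against day 2 turned for let-7d-5p (0.0018) and let-7d-3p (0.0033). That fit called 13 of 664 against 0 of 283, and the slope 11 of 664 against 0 of 283. DESeq2 called 2 and 10 of 283. None of these calls was a member. The cause of these moves was not tested. The ratio of family shares at days 2, 4 and 8 was 1.03, 0.610 and 0.456 without miR-21a-5p, 1.00064, 0.642 and 0.471 without let-7b-5p, 0.908 and 0.590 (days 2 and 4) without miRNAs numbered 1000 and above, 0.555 at day 4 without let-7i-5p, and 0.428 at day 8 with every other arm. Members at least 1.5-fold lower at day 4 were 5 with total counts, where 38.1% of 360 miRNAs were. With TMM scaling 2 members were, where 29.2% of 366 miRNAs were. The RPM values gave 6 members, and the share over all miRNAs was not computed there. Depth limited miR-98-5p and the minor 3p arms.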
